A study of Mus musculus with 8 samples.

Results

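The genes described here encode the conjugating enzymes of phase II metabolism: the UDP-glucuronosyltransferases (Ugt families 1 to 3), the sulfotransferases (Sult families 1 to 6), and the cytosolic and microsomal glutathione S-transferases (Gst and Mgst). All genes of the array's probe table whose symbols carry these family names were taken, which gave 52 of 19321 genes: 12 Ugt, 15 Sult and 25 Gst or Mgst genes, each with 1 probe. The 8 single-colour arrays measured total RNA of mouse liver. All mice had received DMBA, a polycyclic aromatic hydrocarbon carcinogen, at 4 to 5 days of age, including those that served as the normal diet group, and then ate normal or high fat diet for 30 weeks. The groups are normal diet liver (2 livers, mice 117 and 120), non-tumour tissue of high fat diet liver (n = 3) and tumour tissue of the same 3 high fat diet livers (mice 117, 186 and 1). Strain, sex and the number of tumours per liver are not given in the sources used here, and no group without DMBA was analysed here. The number 117 occurs in both diets, where it cannot be 1 animal.

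Phase II enzymes couple a polar group to drugs, carcinogens, hormones, bilirubin and bile acids, so that transporters can carry the products into bile or blood. Glucuronosyltransferases of the endoplasmic reticulum use UDP-glucuronic acid, cytosolic sulfotransferases use the activated sulfate PAPS, and glutathione S-transferases use glutathione. The liver is the main site of these reactions, and nuclear receptors, the aryl hydrocarbon receptor and the oxidative stress factor Nrf2 are known to control many of these genes.

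Levels are the deposited normalized intensities, a linear scale on which the median listed probe of each array is 25. Values are given in the order of mice 117 and 120 for normal diet and 117, 186 and 1 for both high fat tissues. Fold changes are log2 differences ± SE from limma, fitted to quantile-normalized scanner signals of all 8 arrays, with p values adjusted by the Benjamini-Hochberg method over 16798 genes and called below 0.05. These normalizations differ, so a small fitted difference can have another sign than the ratio of the deposited levels. A fixed offset of 50 was added to the signal before log2, so folds of dim genes are understated. Intensities of different probes were not set against each other, since probes differ in response.

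Of the probes, 81.8% to 88.5% were listed with a value per array, and those near the blank spots were not. Of the 52 conjugation genes, 49 could be tested, 44 were listed on all 8 arrays, and Gstt4, Sult3a2 and Ugt2a2 were not tested. The probes of Sult3a2 and Ugt2a2 had a value on 0 arrays, and Gstt4 on 4. Gsto2, Sult2a6, Sult2b1, Sult3a1 and Sult6b2 were tested although some arrays had no value. Of these, Sult2a6 and Sult2b1 entered the test through tumours alone and Gsto2 through normal diet alone, so they were bound to be higher there. Sult3a1 entered through normal diet and non-tumour tissue and was bound to be lower in tumours. Albumin, the main hepatocyte transcript, was bright on all arrays (54609.8 ± 2614 on normal diet, 46977 ± 1741 in non-tumour tissue and 47269 ± 1825 in tumours, mean ± SD). The slope between readings at scanner gain settings 1 and 2 was 0.444 to 0.445 on the 2 normal diet arrays and 0.464 to 0.465 on the 6 high fat diet arrays, so scan setting and diet cannot be told apart.

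Many of these genes were lower in tumours than in the liver around them. Of 49 tested, 24 fell and 3 rose between non-tumour and tumour tissue, and of the 44 listed on all 8 arrays 24 fell and 2 rose. The member that rose but is not among the 44 is Sult2b1, which entered the test through tumours alone. Over all genes, 25.4% were called in this comparison, 13.4% lower and 12.0% higher. The median log2 difference of the 49 was -0.35, against -0.01 for all genes. The same sign in all 3 mice was seen for 41 of the 49: 31 were lower in the tumour of every mouse, 10 were higher in every mouse, and 8 were mixed. Over all 16798 genes tested, 31.9% were lower in every mouse and 27.2% higher. The classes were unlike in their counts: 10 of 11 Ugt genes fell and 1 rose, 11 of 24 Gst and Mgst genes fell and 0 rose, and 3 of 14 Sult genes fell and 2 rose. Median log2 differences were -1.06, -0.26 and -0.05. That difference between classes was not tested. Many Sult probes were dim, and the fixed offset understates folds of dim genes. Deposited tumour means of Sult5a1 and Sult1b1 were 0.348 and 0.354 times those of non-tumour tissue, with fitted log2 differences of -0.26 and -0.46. The bright Ugt2b5 had a ratio of 0.388 and a fitted difference of -1.06. The medians therefore do not rank the classes by size of change. In bulk tissue, fewer cells of a type and less RNA per cell cannot be told apart.

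Between the diets few of these genes were called (8.16% of 49, all genes 3.84%). Only 2 arrays are from normal diet, and uncalled differences reached -2.06 (Sult2a8) and 1.06 (Gstm2). A missing call therefore does not show equal levels. Of 49, 2 were higher and 2 lower in non-tumour liver on high fat diet than in normal diet liver, at a background of 3.84% called over all genes (1.81% higher, 2.03% lower), and the median difference was -0.08 (all genes -0.005). Of the 49, 15 had an unadjusted p below 0.05, a share that was not counted over all genes. Against normal diet liver, tumours had 23 of 49 lower and 2 higher, where 27.9% of all genes were called (15.0% lower, 12.9% higher). Of the 44 listed on all 8 arrays 22 were lower and 1 was higher, since Sult3a1 and Sult2b1 are not among them. The 3 comparisons share arrays, so none of them supports another.

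**Figure D1:**
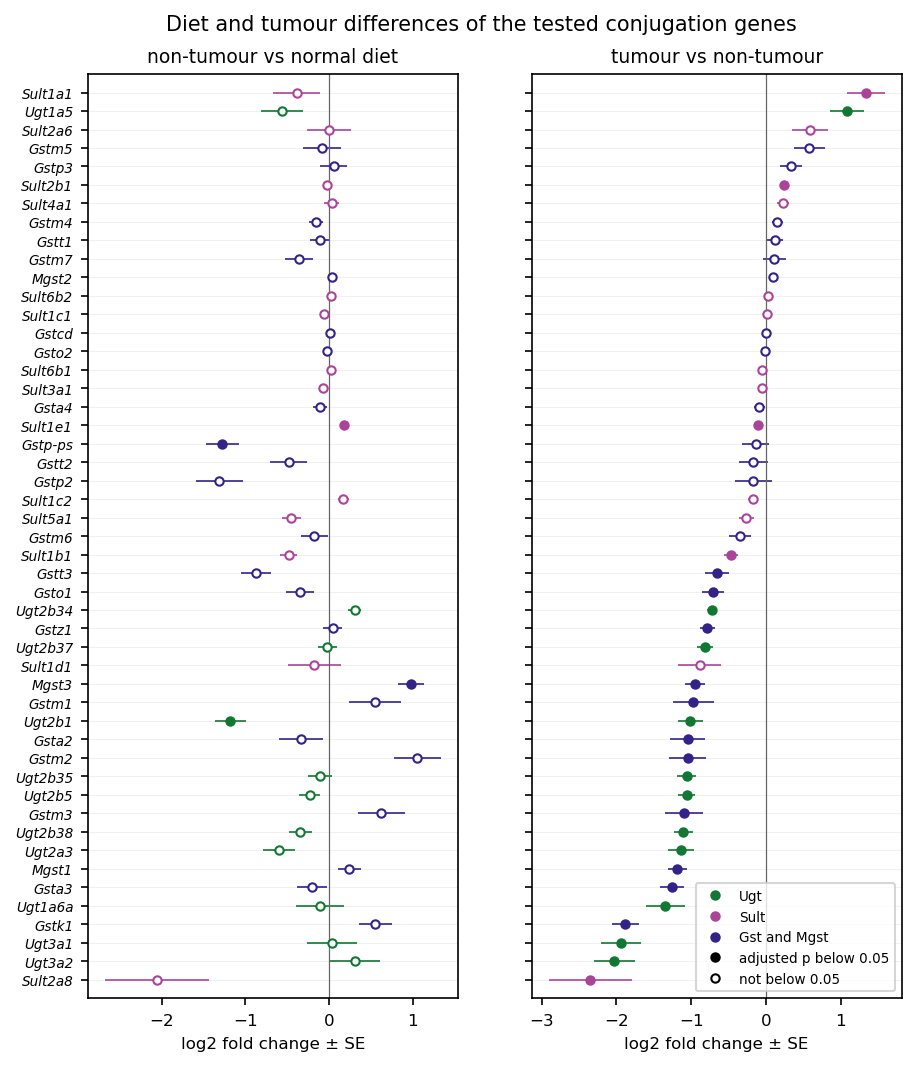
Log2 fold changes ± SE of the 49 tested conjugation genes between non-tumour high fat diet liver and normal diet liver (left) and between tumour and non-tumour tissue (right), ordered by the right panel and coloured by class, with filled points for adjusted p below 0.05. The right panel holds 24 filled points below 0 and 3 above, and the left panel 2 below and 2 above. Of the 3 above, Sult2b1 entered the test through tumours alone. The panels share the 3 non-tumour arrays.

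The glucuronosyltransferases fell as a nearly complete family. Ugt1a5 and Ugt1a6a belong to the Ugt1a locus on chromosome 1, where each enzyme has a first exon and promoter of its own and all share the later exons, so a probe in the shared part could not tell them apart. Ugt1a6 enzymes conjugate small phenols. Ugt1a6a read 1660.2 and 1746 on normal diet, 1256, 1431 and 1320.1 in non-tumour tissue and 365, 623 and 318 in tumours. All 3 tumours lay below every other array (tumour against non-tumour -1.35 ± 0.26, adjusted p 0.0115), and the diets were not called different (-0.11 ± 0.29, adjusted p 0.89). Ugt1a5 went the other way, with 177 and 212 on normal diet, 91.7, 131 and 89 in non-tumour tissue and 160.2, 305 and 288 in tumours. It was the only Ugt gene that rose in tumours against non-tumour tissue (1.08 ± 0.23, adjusted p 0.0157), and the tumour of mouse 117 lay below both normal diet livers (tumour against normal diet 0.52 ± 0.25, adjusted p 0.18). The rise was not called without non-tumour array 117 (adjusted p 0.054) or 1 (0.0554), with a range of 0.00688 to 0.761 over all alternatives tried.

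The promoters of these neighbours are shown because the genes of 1 locus moved in opposite directions in tumours. Each window spans 250 bases before to 50 after a transcription start, from RefSeq on the plus strand of GRCm38.p6, at chr1:88165762-88166061 for Ugt1a5 and chr1:88134559-88134858 for Ugt1a6a. Capitals mark the xenobiotic response element core TNGCGTG in Ugt1a5 (first base at -51, plus strand) and the HNF1 motif GTTAAT in Ugt1a6a (first base at -50, on the minus strand).
Ugt1a5 promoter: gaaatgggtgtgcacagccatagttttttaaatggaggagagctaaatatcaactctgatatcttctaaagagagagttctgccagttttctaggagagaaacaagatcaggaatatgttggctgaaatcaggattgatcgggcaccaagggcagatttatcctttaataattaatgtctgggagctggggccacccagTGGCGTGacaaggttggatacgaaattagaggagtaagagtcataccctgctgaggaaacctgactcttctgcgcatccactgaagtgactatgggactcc
Ugt1a6a promoter: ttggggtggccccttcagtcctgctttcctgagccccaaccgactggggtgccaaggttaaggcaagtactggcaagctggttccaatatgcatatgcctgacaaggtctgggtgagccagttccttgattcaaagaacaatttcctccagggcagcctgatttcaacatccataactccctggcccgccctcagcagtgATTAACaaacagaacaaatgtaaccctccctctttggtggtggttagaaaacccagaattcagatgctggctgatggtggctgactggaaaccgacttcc
Both strands were searched in the windows of all genes. The xenobiotic core, the letters known to be bound by the aryl hydrocarbon receptor, stood in 5.07% of 32851 windows and in 4 of the 60 windows of 47 conjugation genes (Gsta2, Gstcd, Sult1d1 and Ugt1a5). The HNF1 motif stood in 7.10% of all windows and in 8 of the 60 (Gsta3, Sult1a1, Sult1d1, Sult2a6, Sult3a2, Ugt1a6a, Ugt2a3 and Ugt3a1). GTTAAT is only a part of the full HNF1 site. These are exact matches of letters only, so near matches in any window, that of Ugt1a5 included, were not counted.

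The Ugt2 enzymes conjugate steroids, bile acids and many drugs. All 7 tested members fell in tumours against non-tumour tissue. Where their probes lie was not given, so signal shared between these related genes is uncertain. The 7 may therefore not be separate results. The level of Ugt2b5 was 15069.7 and 15912 on normal diet, 9788, 12229.5 and 12522 in non-tumour tissue and 4714, 4228 and 4453 in tumours (-1.06 ± 0.11, adjusted p 0.00155). The 3 tumours lay within a narrow band far below the 3 non-tumour samples. Ugt2b38 read 6276 and 6873 on normal diet, 5108, 3727 and 4762 in non-tumour tissue and 1763, 1755 and 1566 in tumours (-1.10 ± 0.13, adjusted p 0.00196). Ugt2b35 read 4262 and 4085 on normal diet, 3376, 2992 and 3020.1 in non-tumour tissue and 1432, 1189.6 and 1119 in tumours (-1.06 ± 0.13, adjusted p 0.00222). In both genes every tumour was below every non-tumour sample, and every non-tumour sample below both normal diet livers, although the diets were not called different (Ugt2b38 -0.34 ± 0.14, adjusted p 0.252 and Ugt2b35 -0.10 ± 0.14, adjusted p 0.751). The deposited values shift the median log2 difference of all genes by -0.12 between the diets. The diet difference changed sign with local background for both genes, and with median scaling for Ugt2b35. Ugt2b34 overlapped between the diets and fell in tumours, with 3380.3 and 3190.3 on normal diet, 3376, 3129 and 3513 in non-tumour tissue and 1731, 1643 and 1597 in tumours (-0.72 ± 0.07, adjusted p 0.000894). Against normal diet liver its call (-0.41 ± 0.07, adjusted p 0.00826) was lost without normal diet array 117 (adjusted p 0.0653, range 0.000886 to 0.859). Ugt2b37 read 136 and 136 on normal diet, 106, 127 and 132 in non-tumour tissue and 47.1, 59.5 and 36.1 in tumours (-0.82 ± 0.11, adjusted p 0.00288).

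Ugt2b1 and Ugt2a3 had lower levels at both steps, from normal diet to non-tumour tissue and on to tumours. Ugt2b1 read 3672 and 2466 on normal diet, 1172, 989 and 1114 in non-tumour tissue and 496, 398 and 423 in tumours. It was the only Ugt gene called between the diets (-1.18 ± 0.18, adjusted p 0.0257), fell again in tumours (-1.01 ± 0.16, adjusted p 0.00641), and against normal diet liver its difference was -2.19 ± 0.18, adjusted p 0.000622. The diet call was lost without normal diet array 117 (adjusted p 0.104) or without non-tumour array 117, 186 or 1 (0.0629, 0.0798 and 0.0684), range 0.00589 to 0.999. Ugt2a3 read 2815 and 2435 on normal diet, 1355, 1258 and 1614 in non-tumour tissue and 548, 601 and 415 in tumours. Its groups did not overlap at either step, yet only the tumour difference was called (-1.14 ± 0.17, adjusted p 0.00508, diets -0.60 ± 0.19, adjusted p 0.156).

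Ugt3a1 and Ugt3a2, of a family that transfers sugars other than glucuronic acid, showed the largest falls among the Ugt genes between non-tumour and tumour tissue. Ugt3a2 read 1824 and 1527 on normal diet, 1724, 1578 and 2005 in non-tumour tissue and 381, 478 and 224 in tumours (-2.03 ± 0.27, adjusted p 0.00316). Ugt3a1 read 1039 and 786 on normal diet, 815, 737 and 899.9 in non-tumour tissue and 189, 208 and 90.8 in tumours (-1.94 ± 0.27, adjusted p 0.00347). In both genes the diets overlapped, and the tumour of mouse 1 was the lowest array. Within mice 117, 186 and 1 the log2 difference between tumour and non-tumour tissue was -1.85, -1.45 and -2.77 for Ugt3a2 and -1.66, -1.50 and -2.66 for Ugt3a1. Of the Ugt calls between tumours and normal diet liver, that of Ugt3a2 was lost without normal diet array 117 (adjusted p 0.0635, range 0.000428 to 0.152). That of Ugt1a6a was lost without normal diet array 117 (0.0673) or 120 (0.0802), range 0.000449 to 0.918.

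**Figure D2:**
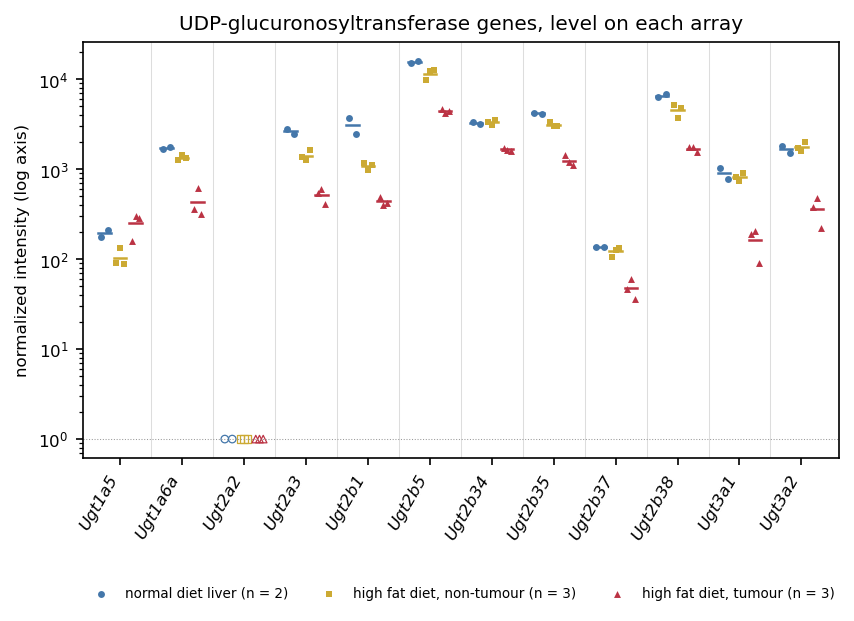
Deposited normalized intensity (log axis) of the 12 Ugt genes on each array of normal diet liver (n = 2), non-tumour (n = 3) and tumour tissue (n = 3) on high fat diet, with bars at group means and open symbols at the dotted line for arrays with no deposited value. Tumours lie lowest for 10 genes, Ugt1a5 is higher in tumours than in non-tumour tissue, and Ugt2a2 has no value on any array.

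Of 9 hepatocyte markers on the array (albumin, apolipoproteins, transthyretin and others), 4 rose and 1 fell in tumours against non-tumour tissue. Their summed level was 214862 to 248318 in tumours, 183276 to 193096 in non-tumour tissue and 255166 to 263690 on normal diet, with none of the 9 unlisted on all arrays of a group. Fibrinogen Fgb (1.19 ± 0.16, adjusted p 0.00297) and Apoa1 (0.86 ± 0.12, adjusted p 0.00319) rose, and Cps1, a urea cycle enzyme, fell (-1.07 ± 0.29, adjusted p 0.0367). Summed markers of macrophages were 1277 to 1888 in tumours and 2632 to 2931 in non-tumour tissue (10 of 10 on the array, 3 lower), and those of red blood cells 137 to 154 against 389 to 435 (4 of 7 on the array, 2 of 3 tested lower). Stellate cell and fibroblast markers (8 of 8 on the array) summed to 979 to 1082 on normal diet, 1448 to 1995 in non-tumour tissue and 1121 to 1760 in tumours. That sum hides opposite directions: between non-tumour tissue and tumours 1 rose and 1 fell (log2 differences -0.86 to 0.86). Mean levels went from 1092 to 551 for Dcn and from 354 to 573 for Col3a1. Over all genes 12.0% rose and 13.4% fell between these tissues, the background for each marker count here. Endothelial markers (8 of 8, with Cdh5 unlisted on normal diet) summed to 465 to 714 in tumours and 719 to 791 in non-tumour tissue, yet 0 of 7 tested fell and 1 rose, Pecam1 (0.60 ± 0.11, adjusted p 0.0085). Cholangiocyte markers summed to 223 to 245 and 209 to 260 (7 of 8), and T, NK and B cell markers to 65.2 to 101 and 88.1 to 99.9 (7 of 8). Markers of pancreas and gut (6 of 8) summed to 2697 to 3321 and 2968 to 3428, with Cpa1 unlisted on all arrays and Prss2 on normal diet and in non-tumour tissue. Of 4 tested, the elastase gene Cela1 rose in tumours against non-tumour tissue, from 103 ± 10.5 to 413 ± 124 (SD, log2 difference 1.76 ± 0.17, adjusted p 0.000996). The part of cell makeup in the changes of the conjugation genes was not tested.

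Of 14 sulfotransferases tested, 3 fell and 2 rose in tumours against non-tumour tissue (21.4% and 14.3%, all genes 13.4% and 12.0%). Of the 2 that rose, 1 is Sult2b1, which was bound to be higher there since it entered the test through tumours alone. Sult2a8, which encodes a bile acid sulfotransferase of mouse liver, had the largest span of all conjugation genes. It read 5357 and 4752 on normal diet, 1326, 665 and 1109 in non-tumour tissue and 334, 144 and 44.4 in tumours. The groups formed 3 separate steps, with the lowest value in the tumour of mouse 1. Tumours were lower than normal diet liver (-4.40 ± 0.63, adjusted p 0.00365) and than non-tumour tissue (-2.35 ± 0.56, adjusted p 0.0249), while the diet difference was not called (-2.06 ± 0.63, adjusted p 0.137). The call between tumour and non-tumour tissue was lost on leaving out either normal diet array (adjusted p 0.0504 and 0.0513), the non-tumour samples of mouse 117 (0.0795) or mouse 1 (0.0753), or the tumour of mouse 186 (0.058), range 0.00643 to 0.97. Its relative Sult2a6 had no value on the 5 arrays outside tumours and read 19.1, 55.7 and 4 in the 3 tumours. The geometric mean of the tumours is at least 11.6-fold above the lowest listed levels of the normal diet and of the non-tumour arrays, or at least 6.26-fold and 6.25-fold without the tumour of mouse 186 and 23.4-fold and 23.3-fold without that of mouse 1. The spread among tumours was wide, and the fitted difference from non-tumour tissue was not called (0.59 ± 0.23, adjusted p 0.121). Sult2a genes are close copies of one another, and where their probes lie was not given, so signal shared between them is uncertain.

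Sult1a1, the main phenol sulfotransferase, was the only sulfotransferase listed on all arrays that rose in tumours. It read 78.4 and 152 on normal diet, 60.8, 95.2 and 46.8 in non-tumour tissue and 192, 272 and 188 in tumours. Every tumour exceeded every other array (1.34 ± 0.25, adjusted p 0.0108 against non-tumour tissue), and the diets overlapped. Against normal diet liver the difference was 0.95 ± 0.28, adjusted p 0.0484, a call that was lost in 11 of its alternatives (range 0.0216 to 0.267), among them the authors' values (0.0597) and each array left out but non-tumour array 186 (0.0529 to 0.267). Sult1b1, which sulfates phenols and thyroid hormones, read 63.2 and 75.3 on normal diet, 41, 27.6 and 30.5 in non-tumour tissue and 14.1, 13.9 and 7.1 in tumours. Its groups formed 3 steps down, of which the second was called (-0.46 ± 0.09, adjusted p 0.0131, diets -0.48 ± 0.10, adjusted p 0.0589). Sult1d1, known for catecholamine substrates, read 515 and 520.3 on normal diet, 392, 406 and 419.7 in non-tumour tissue and 189, 268 and 99.2 in tumours. The groups did not overlap, but the tumours spread widely and no difference was called (tumour against non-tumour -0.89 ± 0.29, adjusted p 0.0676, against normal diet -1.06 ± 0.32, adjusted p 0.0516). Both differences were called with the authors' values (adjusted p 0.0146 and 0.00619) and with scaling to the same median (0.0297 and 0.0399).

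Sult1e1, the oestrogen sulfotransferase, was dim on all arrays. It read 2.3 and 3.6 on normal diet, 7.9, 9.2 and 9.1 in non-tumour tissue and 3.3, 5.7 and 6.2 in tumours. Non-tumour livers stood above both other groups, and the fit called it higher on high fat diet (0.17 ± 0.03, adjusted p 0.0354) and lower in tumours (-0.11 ± 0.03, adjusted p 0.0302). The ratio of the deposited means was 2.96 between the diets. The diet call was lost with scaling to the same median (adjusted p 0.179), with only those 2 groups in the fit (0.0536) and when any array but tumour array 1 was left out (0.0502 to 0.191), range 0.0156 to 0.999. The tumour call was lost when mouse entered as a block (0.0838) and also when any high fat diet array but tumour array 1 was left out (0.0606 to 0.0922), range 0.0224 to 0.981.

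Sult2b1, a cholesterol and pregnenolone sulfotransferase, was listed on 1 of 2 normal diet and 1 of 3 non-tumour arrays (2.7 and 1.9) and on all 3 tumour arrays at 9.1, 7.5 and 11.8. The fitted differences of tumours from non-tumour tissue (0.24 ± 0.04) and from normal diet liver (0.22 ± 0.04) have the direction that its missing values fix. They are in the counts of called members but are given as a description. The call against normal diet liver was lost in some alternatives, among them scaling to the same median and only 2 groups in the fit. Sult3a1, which sulfates amines, was the reverse, with 5.6 and 4.8 on normal diet, 2.5, 2.9 and 2.1 in non-tumour tissue and no value in any tumour. Normal diet liver was at least 3.82-fold and non-tumour tissue at least 1.83-fold above the lowest listed levels of the tumour arrays. The fitted difference between tumours and normal diet liver was -0.12 ± 0.02, in the direction that its missing tumour values fix, and is given as a description. Sult5a1, whose substrates are little known, read 28.3 and 50.7 on normal diet, 16.8, 9.4 and 19.2 in non-tumour tissue and 4.7, 6.5 and 4.6 in tumours. Its 3 groups were separate, and tumours were called lower than normal diet liver (-0.71 ± 0.12, adjusted p 0.00628) but not lower than non-tumour tissue (-0.26 ± 0.10, adjusted p 0.125). The latter difference was called with the authors' values (adjusted p 0.00703) and with only those 2 groups in the fit (0.0349). Sult1c1, Sult1c2, Sult4a1, Sult6b1 and Sult6b2 were not called in any comparison. For Sult4a1, a form known from brain, tumours differed from normal diet liver by 0.26 ± 0.09, adjusted p 0.079. With the authors' values it was called higher in tumours than in non-tumour tissue (adjusted p 0.0458) and normal diet liver (0.0414). The same values called Sult1c1 lower in non-tumour tissue (adjusted p 0.0404) and in tumours (0.0173) than on normal diet.

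**Figure D3:**
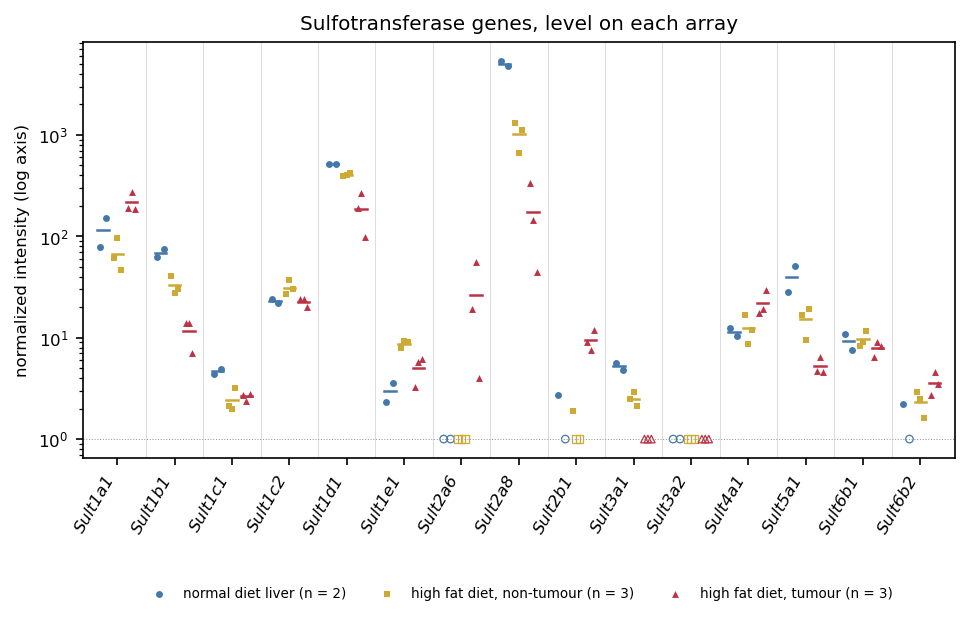
Deposited normalized intensity (log axis) of the 15 Sult genes on each array, with bars at means of groups that are listed on every array and open symbols at the dotted line for arrays with no deposited value. Sult2a8 steps down from normal diet to non-tumour to tumour tissue, Sult1a1 is highest in tumours, and Sult2a6 has values in tumours only.

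Among glutathione S-transferases no gene rose in tumours against non-tumour tissue and 11 of 24 fell, or 6 of 24 with mouse as a block. Over all genes 13.4% fell, and 1846 of 16798 with mouse as a block. The alpha class detoxifies electrophiles and lipid peroxidation products. Gsta3 read 19009 and 17058 on normal diet, 14608, 13148 and 15625 in non-tumour tissue and 4784, 5432 and 4239 in tumours. The tumours lay near a common level below all other arrays (-1.25 ± 0.16, adjusted p 0.0028; diets -0.21 ± 0.18, adjusted p 0.595). Gsta2 read 847 and 1009.6 on normal diet, 579, 582 and 769.7 in non-tumour tissue and 155, 326 and 290.5 in tumours (-1.05 ± 0.24, adjusted p 0.0204). Every tumour was again below every non-tumour sample, but the call was lost without non-tumour array 117 (adjusted p 0.05), 186 (0.0522) or 1 (0.0696), range 0.00519 to 0.235. Against normal diet liver (-1.38 ± 0.26, adjusted p 0.0105) it was lost without normal diet array 120 (0.0783, range 0.00135 to 0.0783). Gsta4, the form with high activity towards 4-hydroxynonenal, read 1242 and 1324 on normal diet, 1011, 975 and 1089 in non-tumour tissue and 728, 691 and 952 in tumours. Its deposited levels stepped down without overlap, yet the fitted difference in tumours was small and not called (-0.09 ± 0.08, adjusted p 0.495). Tumours were not called lower than normal diet liver either (-0.19 ± 0.09, adjusted p 0.149). That difference was called with the authors' values (adjusted p 0.0129) and without tumour array 1 (0.0158), range 0.0129 to 0.88.

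The Gsta3 promoter is shown because the gene fell in tumours and the window holds the antioxidant response element core TGACNNNGC, the letters known to be bound by Nrf2 with small Maf proteins. The window comes from RefSeq on the plus strand of GRCm38.p6 at chr1:21240335-21240634. Capitals mark the core (first base at -121, plus strand) and an HNF1 motif (first base at -149, minus strand).
Gsta3 promoter: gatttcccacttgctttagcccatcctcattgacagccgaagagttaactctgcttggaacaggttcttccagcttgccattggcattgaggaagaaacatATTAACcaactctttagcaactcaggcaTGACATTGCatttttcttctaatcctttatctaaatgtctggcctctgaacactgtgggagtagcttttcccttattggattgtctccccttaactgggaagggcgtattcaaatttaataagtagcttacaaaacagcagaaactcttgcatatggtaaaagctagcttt
The core stood in 12.4% of the 32851 windows of all genes and in 4 of the 60 windows of conjugation genes (6.67%), those of Gsta3, Gstm5, Gstm7 and Mgst1. Of these 4, Gsta3 and Mgst1 fell in tumours and Gstm5 (0.58 ± 0.20, adjusted p 0.0858) and Gstm7 (0.11 ± 0.15, adjusted p 0.654) were not called.

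The mu class lies as 7 neighbours on chromosome 3, and its members are similar in sequence, so shared signal between their probes is uncertain. Gstm1, Gstm2 and Gstm3 fell in tumours, and each was highest in the non-tumour liver of mouse 1. Gstm1 read 4687 and 4786 on normal diet, 4656, 5474 and 7529.5 in non-tumour tissue and 1776, 3467 and 2189 in tumours (-0.97 ± 0.27, adjusted p 0.0449). Gstm3 read 3447 and 3450.2 on normal diet, 3709, 4087 and 5811 in non-tumour tissue and 1398, 2317 and 1473 in tumours (-1.09 ± 0.25, adjusted p 0.0208). Gstm2 read 431 and 379.9 on normal diet, 683, 635.4 and 1242 in non-tumour tissue and 231, 376 and 359 in tumours (-1.05 ± 0.25, adjusted p 0.0258). In all 3 genes tumours and non-tumour tissue did not overlap, and tumours were not called different from normal diet liver (Gstm1 -0.42 ± 0.31, adjusted p 0.364, Gstm2 0.01 ± 0.28, adjusted p 0.985 and Gstm3 -0.47 ± 0.28, adjusted p 0.263). The deposited tumour means of Gstm1 and Gstm3 were 0.523 and 0.502 times those of normal diet liver, without overlap, and both genes were called lower with the authors' values (adjusted p 0.0272 and 0.0142) and without tumour array 186 (0.0475 and 0.0215). Gstm2 had the largest uncalled upward difference between the diets (1.06 ± 0.28, adjusted p 0.101), and both normal diet livers lay below the 3 non-tumour livers. These tumour calls depended on single arrays and on the pairing. A block for mouse gave an adjusted p of 0.088 for Gstm1, 0.0533 for Gstm2 and 0.0672 for Gstm3. The calls were also lost without tumour array 117 or 1 (Gstm1 0.123 and 0.119, Gstm2 0.0728 and 0.0549, Gstm3 0.0651 and 0.057). Gstm1 and Gstm3 were lost without non-tumour array 186 (0.101 and 0.0573) or 1 (0.129 and 0.0669), and Gstm1 also without non-tumour array 117 (0.0593). Without normal diet array 117 or 120 Gstm1 (0.0791 and 0.0825) and Gstm2 (0.0511 and 0.0514) were lost. The ranges over the alternatives were 0.00636 to 0.903, 0.00639 to 0.263 and 0.00234 to 0.534. Gstm4, Gstm5, Gstm6 and Gstm7 were not called in any comparison, and Gstm5 had means of 140 ± 1.42 in non-tumour tissue and 218 ± 70 in tumours (SD). With the authors' values Gstm6 was called lower in tumours than in non-tumour tissue (adjusted p 0.0459) and in normal diet liver (0.00762).

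In the pi class, which conjugates small electrophiles, 1 of 3 genes was called between the diets and 2 of 3 between tumours and normal diet liver. Over all genes 3.84% and 27.9% were called. Gstp-ps is a pseudogene in the annotation, close in sequence to the coding Gstp genes, so its probe may not tell them apart, and Gstp1 was not analysed here. Its probe read 9167 and 14211 on normal diet, 3552, 3703 and 4562 in non-tumour tissue and 2520.4, 3115 and 3332 in tumours. Both normal diet livers stood well above all 6 high fat diet samples, with mouse 120 the highest. It was lower on high fat diet (-1.27 ± 0.20, adjusted p 0.0255) and in tumours than on normal diet (-1.41 ± 0.20, adjusted p 0.00353), and tumour and non-tumour tissue were not called different (-0.14 ± 0.18, adjusted p 0.648). The diet call was lost without normal diet array 120 (adjusted p 0.101) and with non-tumour array 117, 186 or 1 left out (0.0817, 0.0806 and 0.0527), range 0.00734 to 0.999. Gstp2 read 3787 and 6779 on normal diet, 1414, 1563 and 2167 in non-tumour tissue and 1186, 1331 and 1201 in tumours, the same shape, with only the difference between tumours and normal diet liver called (-1.48 ± 0.28, adjusted p 0.0102; diets -1.31 ± 0.28, adjusted p 0.0589). The diet difference of Gstp2 was called with the authors' values (adjusted p 0.0134) and with scaling to the same median (0.0342). Gstp3 was not called, with group means of 162 ± 3.46, 155 ± 40.1 and 189 ± 37.9 (SD) for normal diet, non-tumour and tumour.

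In the theta class Gstt3 stepped down from group to group. It read 411 and 408 on normal diet, 229, 128 and 184 in non-tumour tissue and 94.2, 96.6 and 75.7 in tumours. All groups were separate (-0.65 ± 0.16, adjusted p 0.0279 for tumour against non-tumour, -0.87 ± 0.18, adjusted p 0.0546 for diet and -1.53 ± 0.18, adjusted p 0.00198 for tumour against normal diet). The first of these calls was lost when mouse entered as a block (adjusted p 0.0597), with only 2 groups in the fit (0.0514) and when any array but non-tumour array 186 was left out (0.0507 to 0.0792), range 0.00874 to 0.857. Gstt1, which acts on small halogenated compounds, and Gstt2 were not called. For Gstt2 the difference between tumours and normal diet liver was -0.65 ± 0.22, adjusted p 0.0751, and it was called lower with the authors' values (0.00297), with scaling to the same median (0.0485) and without tumour array 117 (0.0286), range 0.00297 to 0.956. Gstt1 read 2885 and 2632 on normal diet, 2134, 2139.8 and 2039 in non-tumour tissue and 2099, 1882 and 1684 in tumours. With the authors' values tumours were lower than normal diet liver for Gstt1 (-0.55, adjusted p 0.023, range 0.023 to 0.973), against 0.01 in the fit.

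Gstk1, Gsto1 and Gstz1 fell as well. Gstk1, the mitochondrial and peroxisomal form, read 1763 and 1599.7 on normal diet, 2012, 1664 and 2782 in non-tumour tissue and 481, 517 and 400.5 in tumours. The 3 tumours lay close together, far below the other arrays (-1.88 ± 0.18, adjusted p 0.00108 against non-tumour and -1.32 ± 0.20, adjusted p 0.00473 against normal diet). Gstz1, the maleylacetoacetate isomerase of tyrosine breakdown, read 3274 and 2903 on normal diet, 2398, 2528 and 2814 in non-tumour tissue and 1401, 1183 and 1147 in tumours (-0.79 ± 0.10, adjusted p 0.00293). Gsto1, which reduces dehydroascorbate and arsenic species, read 772 and 819.9 on normal diet, 569, 462 and 596 in non-tumour tissue and 266, 329 and 225 in tumours (-0.71 ± 0.15, adjusted p 0.0169). Both genes were lower in every tumour than on any other array. The call of Gsto1 was lost when mouse entered as a block (adjusted p 0.0782) and also without non-tumour array 117 (0.0589) or 1 (0.0591), range 0.00314 to 0.225. Gsto2 and Gstcd were dim and not called.

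Microsomal glutathione S-transferases sit in membranes and belong to another protein family. Mgst1 was bright, with 40581 and 44908 on normal diet, 40639.5, 37928 and 41286 in non-tumour tissue and 17942, 17130.3 and 13105 in tumours. The diets overlapped and the tumours were all lower (-1.19 ± 0.13, adjusted p 0.00149). Mgst3, which has glutathione peroxidase activity, read 255 and 268 on normal diet, 451, 583 and 526 in non-tumour tissue and 233, 227 and 185 in tumours. It was the only Gst or Mgst gene called higher on high fat diet (0.98 ± 0.15, adjusted p 0.0255), and it fell in tumours (-0.95 ± 0.14, adjusted p 0.00421) to a level not called different from normal diet liver (0.03 ± 0.15, adjusted p 0.894). The diet call was lost without normal diet array 117 (adjusted p 0.159) or 120 (0.132) and with non-tumour array 186 (0.0674) or 1 (0.0657) left out, range 0.00486 to 0.885. Mgst2 was dim and not called.

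**Figure D4:**
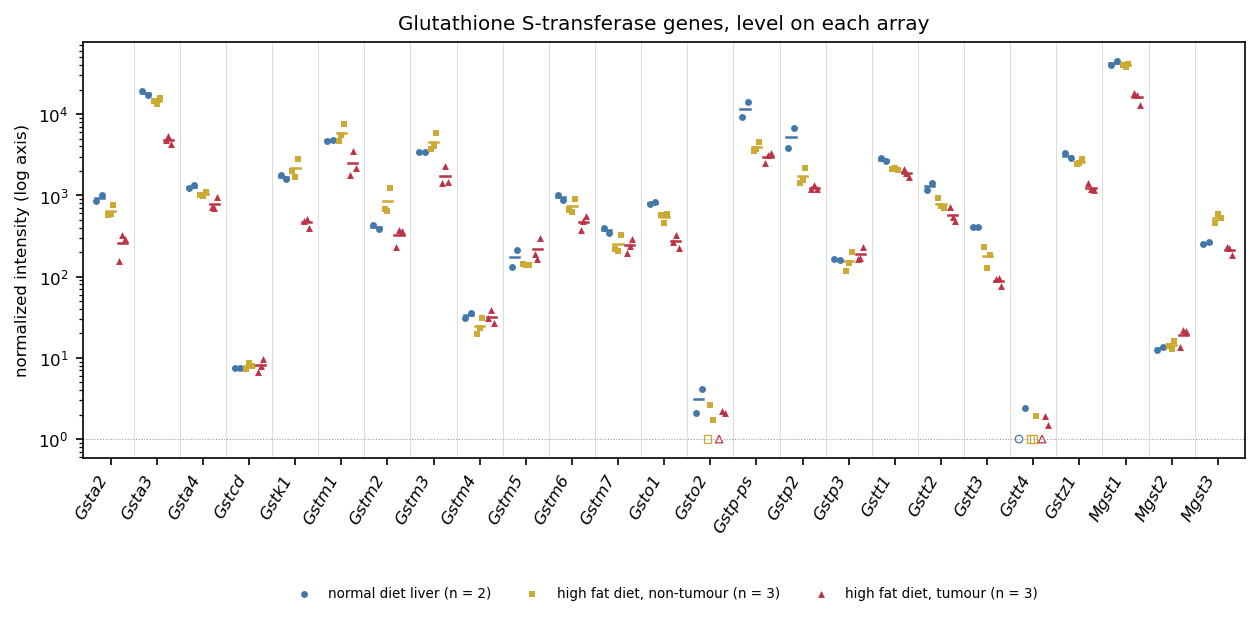
Deposited normalized intensity (log axis) of the 25 Gst and Mgst genes on each array, with bars at means of groups that are listed on every array and open symbols at the dotted line for arrays with no deposited value. Tumours lie lowest for Gsta3, Gstk1, Gstz1 and Mgst1, Gstp-ps and Gstp2 are highest on normal diet, and Mgst3 is highest in non-tumour liver.

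Several of these genes are neighbours. On chromosome 5, 11 members (8 Ugt2 genes with Sult1b1, Sult1d1 and Sult1e1) follow each other with at most 10 protein-coding genes between successive members. Of the 10 tested there, 9 fell in tumours against non-tumour tissue, with log2 differences of -1.14 to -0.11. The other, Sult1d1, was lower in the tumour of every mouse but not called (-0.89 ± 0.29, adjusted p 0.0676). Among the 9, the dim Sult1e1 lost its call with mouse as a block (adjusted p 0.0838). Shared signal between the Ugt2 probes is uncertain here too. Over all genes 13.4% fell. Between the diets 1 of the 10 was higher (Sult1e1) and 1 lower (Ugt2b1), with 1.81% and 2.03% over all genes. In the Gstm cluster 3 of 7 fell in tumours, with a range of -1.09 to 0.58. In the Gstt cluster on chromosome 10, 1 of 3 tested fell.

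UDP-glucose dehydrogenase Ugdh, which makes UDP-glucuronic acid, read 1720.2 and 1938 on normal diet, 2334, 2226 and 2217 in non-tumour tissue and 775, 862 and 593 in tumours. It was lower in the tumour of every mouse and fell (-1.31 ± 0.17, adjusted p 0.00316). The list of donor supply and glucuronide removal holds 8 genes, among them Ugt8a, B3gat1 and B3gat3, which are other sugar transferases. Of the 8, Ugdh was the 1 that fell, and Slc35b1, a carrier of the endoplasmic reticulum, was the 1 that rose (0.76 ± 0.08, adjusted p 0.00116), with a median of -0.05 over the list. That is 12.5% in each direction, near the 13.4% lower and 12.0% higher over all genes. Ugp2, which makes UDP-glucose, was higher on high fat diet (0.43 ± 0.08, adjusted p 0.0482) and was called higher in tumours than on normal diet (0.32 ± 0.08, adjusted p 0.031), while its deposited mean was lower there. The authors' values reversed the latter (-0.25, adjusted p 0.24, range 0.0289 to 0.874), as did correction with the local background, and it was lost without normal diet array 117 (0.2), non-tumour array 117 (0.0521) or tumour array 117 (0.0725) or 186 (0.0567). The Ugp2 diet call was lost in 13 of 18 alternatives, among them those values (0.632) and the loss of any 1 of the 8 arrays (0.0507 to 0.254), range 0.0231 to 0.999.

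In the sulfonation list 3 of 10 tested genes fell and 3 rose in tumours (median -0.27, all genes 13.4% lower and 12.0% higher), and 0 of 10 were called between the diets by limma, with 0 at an unadjusted p below 0.05. Suox, the mitochondrial sulfite oxidase that makes sulfate, read 414 and 296 on normal diet, 285, 259 and 368 in non-tumour tissue and 51.9, 56.5 and 40.9 in tumours (-1.82 ± 0.14, adjusted p 0.000606). Slc26a1, a sulfate carrier (-0.64 ± 0.15, adjusted p 0.0266), and the sulfatase Arsa (-0.57 ± 0.10, adjusted p 0.00883) also fell. The call of Slc26a1 was lost when mouse entered as a block (adjusted p 0.119) and when normal diet array 120 or either tissue of mouse 117 or mouse 1 was left out (0.0505 to 0.0682), range 0.00705 to 0.974. The PAPS synthase Papss1 rose from a low level (0.25 ± 0.05, adjusted p 0.0107), and its relative Papss2 was lower in tumours than on normal diet (-0.84 ± 0.24, adjusted p 0.0411, lost in 9 alternatives, among them without either normal diet array, 0.153 and 0.178, range 0.00929 to 0.234).

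In the glutathione list 7 of 19 tested genes fell and 2 rose in tumours (median -0.21, all genes 13.4% lower and 12.0% higher), and 2 were higher and 1 lower on high fat diet (all genes 1.81% and 2.03%). Cth, which makes the cysteine of glutathione from cystathionine, read 4103 and 3201 on normal diet, 1452, 1409 and 1668 in non-tumour tissue and 417, 419.8 and 344 in tumours. It was lower at both steps (-0.97 ± 0.14, adjusted p 0.0204 for diet and -1.63 ± 0.12, adjusted p 0.000607 for tumour). Glutaredoxin Glrx (-1.11 ± 0.17, adjusted p 0.00526), the gamma-glutamyltransferase gene Ggt6 (-0.88 ± 0.09, adjusted p 0.00138) and the peptidase gene Lap3 (-0.80 ± 0.13, adjusted p 0.00551) fell in tumours. Gclm, the modifier subunit of the rate-limiting ligase, fell (-0.64 ± 0.07, adjusted p 0.00171). For Gclc, the catalytic subunit, the difference was 0.15 ± 0.21, adjusted p 0.684. Against normal diet liver Gclc was called higher in tumours (0.85 ± 0.23, adjusted p 0.039), a call lost in 9 of 18 alternatives, among them the authors' values (0.362) and either normal diet array (0.113 and 0.202), non-tumour array 186 (0.0643) or tumour array 186 (0.0744) or 1 (0.0553) left out, range 0.0234 to 0.888. Glutathione synthetase Gss rose (0.34 ± 0.06, adjusted p 0.00753) and so did Ggct (0.73 ± 0.17, adjusted p 0.0212). Chac1, which breaks glutathione down, read 27.1 and 14.9 on normal diet, 97.5, 114 and 121 in non-tumour tissue and 61.4, 53 and 76.2 in tumours. All 6 high fat diet samples exceeded both normal diet livers (diets 1.25 ± 0.12, adjusted p 0.00609), a call lost without normal diet array 120 (adjusted p 0.0539, range 0.00169 to 0.848). The diet call of Cth was lost on leaving out either of the normal diet arrays, and without non-tumour array 117 or 186 (0.0668 to 0.123, range 0.00639 to 0.999).

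Of other conjugating enzymes, 9 of 14 tested fell and 1 rose in tumours (median -1.11), where 13.4% of all genes were lower. The methyltransferase genes Nnmt (-2.81 ± 0.35, adjusted p 0.00241) and Inmt (-2.27 ± 0.43, adjusted p 0.0108), the acyl-CoA synthetase gene Acsm1 (-1.88 ± 0.17, adjusted p 0.000831) and Baat, which conjugates bile acids with taurine and glycine (-1.65 ± 0.15, adjusted p 0.000859), led the falls. Nat8, an acetyltransferase that finishes mercapturic acids from glutathione conjugates, read 742 and 835 on normal diet, 126, 109 and 155 in non-tumour tissue and 21.2, 28.1 and 9 in tumours. Its groups were far apart at both steps (-2.03 ± 0.14, adjusted p 0.00255 for diet and -1.43 ± 0.13, adjusted p 0.000849 for tumour).

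Of 15 carriers of conjugates and bile acids, 8 fell and 0 rose in tumours (median -0.72, all genes 13.4% lower and 12.0% higher). The uptake carrier genes Slco1b2 (-2.82 ± 0.48, adjusted p 0.00759), Slco2b1 (-1.64 ± 0.19, adjusted p 0.00185) and Slco1a4 (-1.31 ± 0.19, adjusted p 0.0039) and the bile salt export pump gene Abcb11 (-1.34 ± 0.18, adjusted p 0.00327) had the largest falls. Slco1a1, another uptake carrier gene, read 1442 and 1236 on normal diet, 82.2, 39 and 37.6 in non-tumour tissue and 41, 18.3 and 5.6 in tumours. It was lower on high fat diet (-3.56 ± 0.29, adjusted p 0.00372), and the phospholipid carrier gene Abcb4 was higher (0.85 ± 0.12, adjusted p 0.0188, lost on leaving out either of the normal diet arrays, and without non-tumour array 117 or 1, 0.0516 to 0.103, range 0.00287 to 0.834).

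Among 29 tested genes of receptors, factors and their known targets, 11 fell and 2 rose in tumours (median -0.17, all genes 13.4% lower and 12.0% higher). The constitutive androstane receptor Nr1i3 read 612 and 578 on normal diet, 515, 505 and 517 in non-tumour tissue and 84.6, 133 and 24.7 in tumours (-2.14 ± 0.33, adjusted p 0.00543). Every tumour was lower than every other array, and the diets were not called different (-0.04 ± 0.37, adjusted p 0.972). The receptor target Cyp2b10 read 84.9 and 39.7 on normal diet, 324, 377 and 454 in non-tumour tissue and 352, 411 and 466 in tumours. It was higher on high fat diet (2.04 ± 0.18, adjusted p 0.00485), and tumours were not called different from non-tumour tissue (0.28 ± 0.16, adjusted p 0.272). The aryl hydrocarbon receptor target Cyp1a2 read 4402 and 4180.5 on normal diet, 1180.1, 612 and 1121 in non-tumour tissue and 110.2, 230.2 and 42.1 in tumours. Its groups stepped down without overlap (-2.52 ± 0.46, adjusted p 0.01 for tumour), and the tumour call was lost when mouse entered as a block (adjusted p 0.0614, range 0.00217 to 0.133). Cyp3a11, a target of the pregnane X receptor, fell as well (-1.66 ± 0.32, adjusted p 0.0117). Bach1, a repressor at antioxidant response elements, rose (1.24 ± 0.20, adjusted p 0.00662). Nfe2l2, which encodes Nrf2 (0.43 ± 0.33, adjusted p 0.419), and its target Nqo1 (-0.11 ± 0.09, adjusted p 0.447) were not called. No relation between these factors and the conjugation genes was tested.

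The calls carried 2 general limits. Correction with the local background reading of each spot left 0 of 49 members called by limma in each comparison. That reading rose with the spot itself (rank correlation 0.902 to 0.960). At an unadjusted p below 0.05 there were 17, 4 and 15 for tumour against non-tumour, diet, and tumour against normal diet. The share of all genes below that threshold was not counted. With mouse number as a block, 21 of the 49 were called between tumour and non-tumour tissue, 18 lower and 3 higher. Over all genes, 3495 of 16798 were called with that block, 1846 lower and 1649 higher.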

How the data were processed

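Total RNA of 8 mouse livers or liver tissues was amplified and coupled to Cy5 per the labels' protocols, and measured on single-colour arrays. The scanner files hold spot median and background intensity readings per the file headers, and the deposited table holds normalized intensity, which the authors made by a step not given in the sources used here. Recomputed from the scanner files each value is the spot median less the blank mean, over 1 factor per array (r2 = 1), with probes near the blank level left empty.

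Of 27456 spots, 3982 control, blank and empty spots were left out. Of 23473 probes, 20690 had 1 gene symbol in the platform table, 2783 had none and 0 had several. For a gene the probe with the highest mean deposited value was used. In limma 3.58.1 (R 4.3.3), spot medians were background corrected (normexp on 2736 blank spots, 50 added), then quantile normalized and logged (log2). Genes with a value on every array of 1 or more groups were tested. Group means were fitted to all 8 arrays (5 residual and 1.49 prior degrees of freedom) and compared 2-sided with Benjamini-Hochberg adjustment. Arrays of a group are separate mice, and their number limits the precision. The fit was tested on simulated data.

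Tumour and non-tumour arrays of 1 mouse number come from 1 liver per the labels. Their deviations from the group means correlated at 0.442, 0.148 and 0.167 for mice 117, 186 and 1, and at -0.274 to 0.028 across mice. Mouse was a block in an alternative.

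Named genes were all members, with array values for called members, and up to 4 called genes of each related list per comparison, of which a part is printed. Nfe2l2, Nqo1, Gclm, Gclc, Ggct, Gss, Pecam1, Cela1 and the promoters shown were chosen after their values were seen. Members and lists were chosen with earlier results of these data known. Promoters came from RefSeq (GRCm38.p6), to which all 52 genes matched by gene number.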

Additional observations from a re-analysis of the deposited data

How the results depend on the processing

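Alternatives changed 1 choice at a time: background, offset, scaling, filter, probe, arrays in the fit, mouse as a block, and each array left out. The authors' values were a further alternative that differs in background, offset, scaling and genes tested at once. The call for tumour against non-tumour tissue kept 18 of 27 members under all alternatives but the local background, and that for tumour against normal diet 18 of 25. None of the 4 diet calls was kept under all of them. Some uncalled members were called in the fitted direction under 1 or more alternatives. They were 8 of 22 between tumour and non-tumour tissue, 9 of 45 between diets and 15 of 24 between tumours and normal diet. The number called was 27 between tumour and non-tumour tissue (19 to 26 with 1 array left out, 21 with the replicate block), 4 between diets (0 to 6) and 25 between tumours and normal diet (19 to 28). With local background it was 0 in each. With non-tumour array 186 or 1 left out, 0 diet calls remained in limma. There 14 and 15 members had an unadjusted p below 0.05, shares that were not counted over all genes. Between diets 9 of 45 members were called with the authors' values and 7 of 47 with only those 2 groups. Over all genes, 663 of 15705 and 840 of 16626 were called there. No called member turned direction under median scaling or the authors' values. With local background Ugt1a6a turned to 0.77 (adjusted p 0.929) and Slco2b1 to 0.0052 in tumours against non-tumour tissue, and Ugp2 to -0.79 against normal diet. With the authors' values Gstt1 turned to -0.55 and Ugp2 to -0.25 in tumours against normal diet. Over all genes, 645 diet calls (304 higher, 341 lower) became 1404 (1084 and 320) with median scaling and 731 (432 and 299) with blank subtraction, and 3 with local background. The 4679 calls of tumours against normal diet (2163 and 2516) became 4955 (1531 and 3424) with the authors' values, which shift the median of all genes by -0.20 there and -0.12 between diets, and 220 (131 and 89) with local background. For tumour against non-tumour tissue 4268 calls (2009 and 2259) became 126 (95 and 31) with local background. A scan or slide block was not run, since the headers give no slide or scan date.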
